A study of Trichoderma cf. simile with 24 samples.

Results

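Gene expression on day 3 was compared between cultures of the fungus Trichoderma cf. simile WF8 that had received 4-phenoxybenzoic acid and cultures that had received phenetole. The comparison covered 6 of the 24 libraries of the study, 3 flasks a side, and all 13298 loci listed in the count table. The treated mycelium had first grown for 60 h in shaken Sabouraud maltose broth at 29 °C in the dark. It then received 4-phenoxybenzoic acid at 10 mg/L or phenetole at 200 mg/L, and was harvested 3 days later. The 4-phenoxybenzoic acid was added from a stock in dichloromethane, which by its strength made up 5% of the culture volume, while phenetole was added neat. Copper, manganese and veratryl alcohol are also listed as additions, and the sources used here do not say which cultures received them, nor whether the control received dichloromethane. The molecule, the dose, which was 20 times higher for phenetole, and the solvent therefore differ together between the groups, and their shares in any difference cannot be told apart. For context, values are also given from the day 3 cultures with 9,10-dibutoxyanthracene (5 mg/L, from a dichloromethane stock), from the day 3 control without a model compound, and from day 1 libraries, each again from 3 flasks.

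Lignite is brown coal, a material rich in aromatic rings joined by ether and carbon bonds, and the compounds serve as small models of such bonds. Phenetole (ethoxybenzene) is an alkyl aryl ether, in which a short alkyl chain and a benzene ring share an oxygen. 4-Phenoxybenzoic acid is a diaryl ether, in which the oxygen joins aromatic rings and a ring carries a carboxylic acid. Fungi are known to attack such molecules outside the cell with oxidases and peroxidases, such as laccases, and inside it with cytochrome P450 monooxygenases, which hydroxylate rings and remove alkyl groups from ethers. The files pair 0 of the locus IDs with a gene name, so the loci below carry no function and none of these enzymes could be scored.

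Total counts in the 6 libraries ranged from 17152629 to 19317292, and 10842 loci passed the filter on low counts. Levels are given as CPM, counts relative to the size of their library, with library sizes scaled by TMM factors. These factors were 1.257 to 1.298 with 4-phenoxybenzoic acid and 0.9809 to 1.184 with phenetole. Per library 11561 ± 80.5 loci had a count with 4-phenoxybenzoic acid and 11303 ± 107 with phenetole (SD, n = 3). Counts are shares of a library, so a lower share and less RNA per cell cannot be told apart.

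The flasks of a group were not alike. Between pairs of 4-phenoxybenzoic acid flasks the median absolute log2 difference over loci was 0.292 to 0.38, and between pairs of phenetole flasks 0.354 to 0.374. Across the groups it was 0.293 to 0.591. The lowest value across the groups belonged to flask 1 of 4-phenoxybenzoic acid and flask 1 of phenetole, which were closer to each other than any pair of phenetole flasks. Flask 3 of 4-phenoxybenzoic acid lay farthest from phenetole, at 0.422, 0.591 and 0.571 from its flasks 1, 2 and 3. Results that rest on these flasks are given with and without them.

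Between the compounds, 408 of the 10842 loci tested differed at an adjusted p under 0.05 in edgeR's quasi-likelihood test, or 3.76%. Of these, 182 (1.68% of those tested) were higher and 226 (2.08%) lower with 4-phenoxybenzoic acid, and 365 differed at least 2-fold. The median log2 difference (4-phenoxybenzoic acid minus phenetole) was 2.43 over the loci called higher and −1.65 over those called lower, beside 0.03 over all loci tested. Groups did not overlap at 176 of the loci called higher and 208 of those called lower. Over all loci tested, groups did not overlap at 26.2%.

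**Figure D1:**
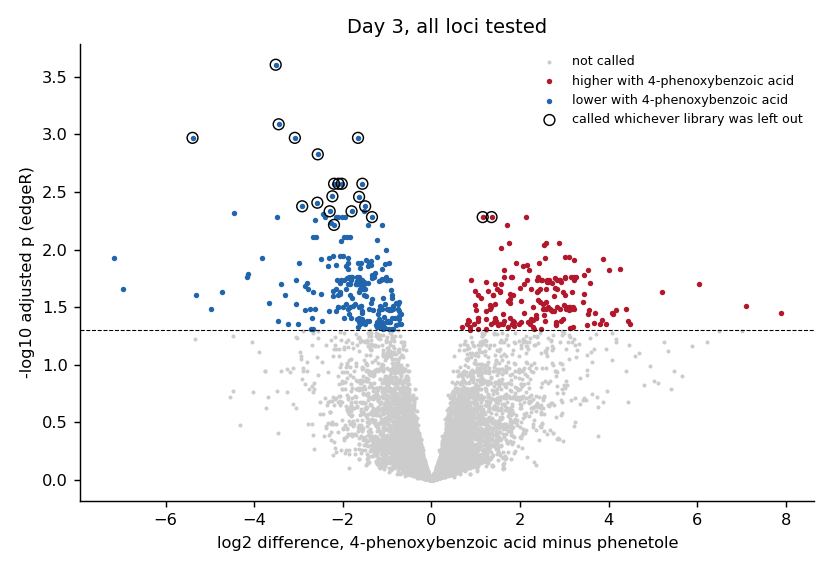
Each point is a locus at day 3, with the log2 difference (4-phenoxybenzoic acid minus phenetole) on the x axis and −log10 of the edgeR adjusted p on the y axis; the dashed line marks an adjusted p of 0.05. The 182 loci called higher and the 226 called lower are coloured, and black rings mark the 21 loci called whichever library was left out, 19 of which were lower.

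The count of calls depended on single flasks, and each fit without a flask also had fewer samples. It was 27 without 4-phenoxybenzoic acid flask 3, 53 without phenetole flask 3, 75 without phenetole flask 2 and 645 without phenetole flask 1. With only these 6 libraries in the fit edgeR called 0 loci, with 2060 at an unadjusted p under 0.05, while DESeq2 on all 24 libraries called 829. Without 4-phenoxybenzoic acid flask 3, 6 loci were called higher and 21 lower, and the corresponding counts were 7 and 46 without phenetole flask 3 and 9 and 66 without phenetole flask 2.

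**Figure D2:**
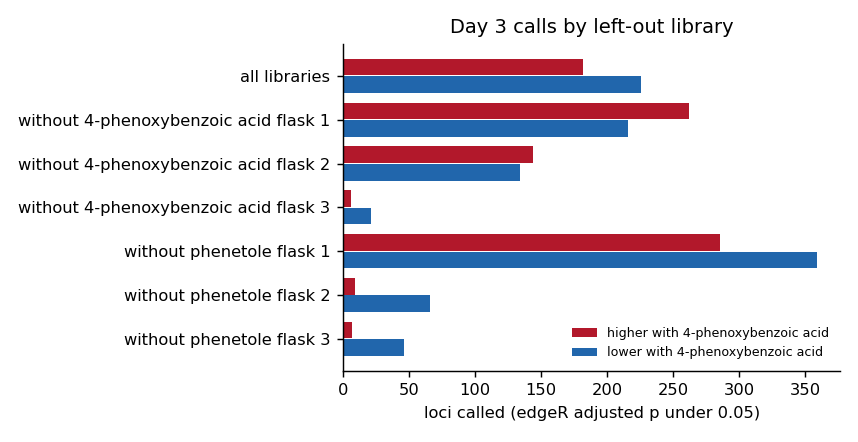
Bars give the number of loci called at day 3 (x axis) with all libraries and without each of the 6 libraries in turn, higher (red) or lower (blue) with 4-phenoxybenzoic acid. The bars shrink to 6 and 21 loci without 4-phenoxybenzoic acid flask 3, and grow to 286 and 359 without phenetole flask 1.

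Most called loci lay farther from the day 3 control with phenetole than with 4-phenoxybenzoic acid. Over the 226 loci called lower, the median log2 difference from the control was −0.37 with 4-phenoxybenzoic acid and 1.16 with phenetole. Over the 182 loci called higher, it was 0.50 with 4-phenoxybenzoic acid and −1.92 with phenetole. Phenetole lay farther from the control than 4-phenoxybenzoic acid at 189 of the 226 and at 163 of the 182, beside 6210 of the 10842 loci tested. Both comparisons share the control libraries, and each shares its treated libraries with the contrast that chose the loci, so these values describe the loci and support nothing further. It is not stated whether the control held the solvent, so compound and solvent cannot be told apart in these distances. Against the control, 1 of the 226 loci and 1 of the 182 passed the test with 4-phenoxybenzoic acid, and 96 and 52 passed with phenetole. Over all loci tested, 0.0738% passed with 4-phenoxybenzoic acid (0.0369% higher and 0.0369% lower than the control) and 3.42% with phenetole (1.52% higher and 1.9% lower).

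Among the loci that were lower with 4-phenoxybenzoic acid, 8 were named for the largest falls. Trisim1_000290 (3077 bp) stood at 2.12, 2.06 and 2.46 CPM in 4-phenoxybenzoic acid flasks 1, 2 and 3, against 49.3, 250 and 530 CPM in phenetole flasks. The ratio was 117-fold, and the log2 difference −6.96 ± 1.64 (SE; adjusted p = 0.0222, edgeR). With phenetole all flasks were high, flask 3 most and flask 1 least, while with 4-phenoxybenzoic acid they lay within the range of the control, 0.538 to 4.25 CPM.

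Trisim1_007805 (2129 bp) stood near 0 with 4-phenoxybenzoic acid, at 0.122, 0.0857 and 0.0807 CPM, against 4.51, 1.33 and 7.08 CPM with phenetole. It was 45-fold lower (log2 difference −5.39 ± 0.72, adjusted p = 0.00107, edgeR), and the control held 0.217, 0.294 and 0.138 CPM. The ratio rested on 7 counts with 4-phenoxybenzoic acid and 255 with phenetole, with a 95% counting interval of 21.5 to 113. Phenetole flasks thus stood above all others, the 9,10-dibutoxyanthracene flasks having 0 counts. Trisim1_002177 (3467 bp) stood at 182, 122 and 105 CPM with 4-phenoxybenzoic acid, against 464, 3164 and 5373 CPM with phenetole. The control had 219, 192 and 1053 CPM, so that control flask 3 lay above phenetole flask 1. The log2 difference between the compounds was −4.46 ± 0.76 (adjusted p = 0.00486, edgeR).

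Trisim1_011476 (1422 bp) had the lowest p of the 8. It measured 5.79, 11.7 and 7.63 CPM with 4-phenoxybenzoic acid, against 69.3, 138 and 80.3 CPM with phenetole, an 11.2-fold lower level (log2 difference −3.51 ± 0.41, adjusted p = 0.000248, edgeR). The control lay between the compounds, at 7.62 to 29.9 CPM, and overlapped the 4-phenoxybenzoic acid flasks only.

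The other falls, like that of Trisim1_007805, were of loci with few counts. Trisim1_004085 (1011 bp) had a single count over the 4-phenoxybenzoic acid libraries, against 0.84, 0.667 and 0.878 CPM with phenetole. The ratio was 58-fold with a 95% counting interval of 9.92 to 2340. Trisim1_008626 (1491 bp) had 3 counts with 4-phenoxybenzoic acid and 83 with phenetole, a ratio of 34.2-fold with an interval of 11.3 to 169. Both rest on few reads, and the intervals cover counting error only. Trisim1_000863 (1815 bp) averaged 0.0836 ± 0.0725 CPM with 4-phenoxybenzoic acid and 1.60 ± 1.21 CPM with phenetole, and Trisim1_012488 (2200 bp) 0.0834 ± 0.0439 and 1.26 ± 1.01 CPM (SD, n = 3). Of the 8 calls, 6 were lost without 4-phenoxybenzoic acid flask 3, 5 without phenetole flask 3, 4 without phenetole flask 2, 3 without 4-phenoxybenzoic acid flask 2 and 2 without its flask 1. Adjusted p reached 0.164, 0.0995, 0.152, 0.103 and 0.0771 in these fits. The differences themselves stayed large, with log2 values of −7.04 to −3.45 over the 8 loci without 4-phenoxybenzoic acid flask 3, −6.09 to −2.94 without phenetole flask 3 and −7.03 to −3.16 without phenetole flask 2, beside −6.96 to −3.51 with all libraries. Trisim1_007805 and Trisim1_011476 were called in all of them.

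**Figure D3:**
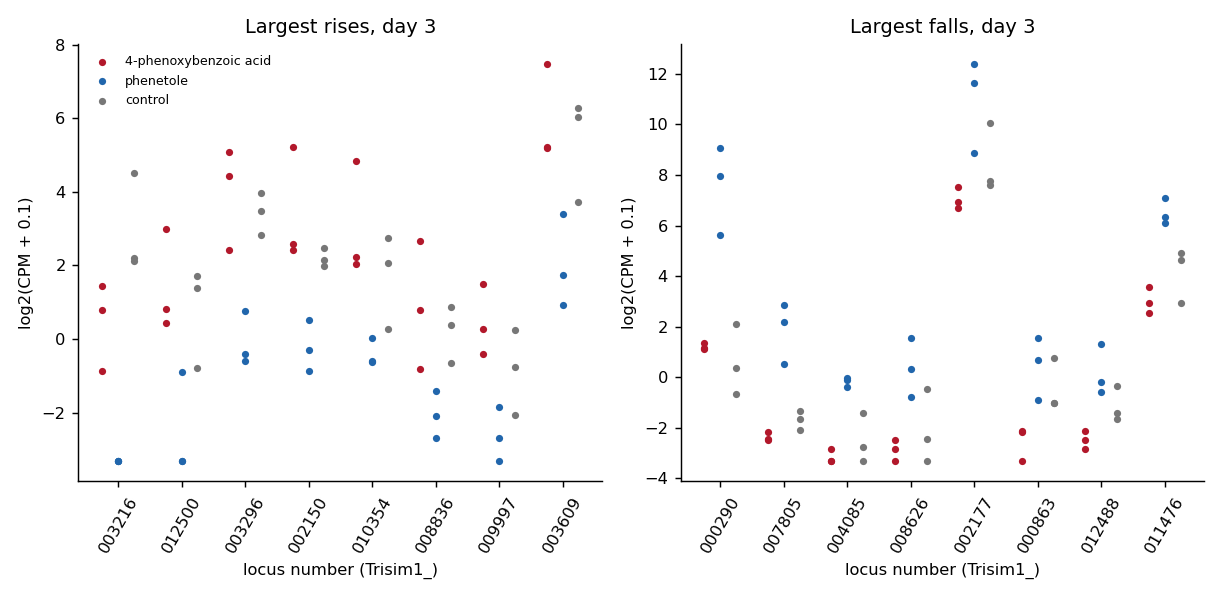
Points give log2(CPM + 0.1) of single flasks at day 3 (y axis) for the 8 loci with the largest rises (left) and the 8 with the largest falls (right), by locus number (x axis); red is 4-phenoxybenzoic acid, blue phenetole and grey the control. Red and blue do not overlap at any of the 16 loci because the rule that named them required it. Flask 3 is the highest red point at 7 of the 8 rises, Trisim1_003216 being the exception.

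Among the loci that were higher with 4-phenoxybenzoic acid, the largest fitted rise was that of Trisim1_003216 (1604 bp). It measured 0.449, 2.61 and 1.61 CPM with 4-phenoxybenzoic acid, against 0 counts in all phenetole flasks. With a floor of 3 counts over the phenetole group it was at least 30.2-fold higher (adjusted p = 0.0352, edgeR). The control stood higher than both, at 4.46, 22.6 and 4.21 CPM, so 4-phenoxybenzoic acid lay between phenetole and the control.

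Trisim1_003609 (1707 bp) stood at 36.6, 36.8 and 178 CPM with 4-phenoxybenzoic acid, against 10.4, 3.22 and 1.81 CPM with phenetole. It was 15.4-fold higher (log2 difference 4.02 ± 0.85, adjusted p = 0.0151, edgeR). The control had 65.6, 76.8 and 13 CPM, and the 9,10-dibutoxyanthracene cultures 189 ± 32.5 CPM (SD, n = 3), a level that only flask 3 of 4-phenoxybenzoic acid approached.

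Trisim1_002150 (579 bp) and Trisim1_010354 (1263 bp) had the same shape. Trisim1_002150 measured 5.87, 5.23 and 37.3 CPM with 4-phenoxybenzoic acid, against 1.33, 0.444 and 0.713 CPM with phenetole, an 18.9-fold higher level (adjusted p = 0.0149, edgeR). Trisim1_010354 measured 4.61, 3.98 and 28.4 CPM, against 0.929, 0.555 and 0.549 CPM with phenetole (18-fold higher, adjusted p = 0.0334, edgeR). At both loci flasks 1 and 2 of 4-phenoxybenzoic acid lay near the control level, which was 4.54 ± 0.804 and 3.92 ± 2.74 CPM. Flask 3 lay near the level with 9,10-dibutoxyanthracene, which was 39.7 ± 3.18 and 31.0 ± 2.02 CPM.

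Trisim1_003296 (632 bp) was 20.8-fold higher, at 21.4, 5.27 and 34 CPM with 4-phenoxybenzoic acid against 1.59, 0.555 and 0.658 CPM with phenetole. Trisim1_012500 (931 bp) was 21.3-fold higher, at 1.26, 1.67 and 7.79 CPM against 0.442 CPM in phenetole flask 1 and 0 counts in its other flasks. Trisim1_008836 (1306 bp) and Trisim1_009997 (489 bp) were 18.4-fold and 17.7-fold higher, with group means of 2.76 and 1.49 CPM against 0.154 and 0.0775 CPM with phenetole. For each of these 4 loci the adjusted p (edgeR) lay between 0.0326 and 0.0419. All 8 calls were lost without 4-phenoxybenzoic acid flask 3 (adjusted p of 0.134 to 0.3), without phenetole flask 2 (0.087 to 0.167) and without phenetole flask 3 (0.0878 to 0.176). Further, 3 were lost without phenetole flask 1 (up to 0.0752) and 2 without 4-phenoxybenzoic acid flask 2 (up to 0.0775). The log2 differences of the 7 loci other than Trisim1_003216 were 4.02 to 4.43 with all libraries. They were 2.64 to 3.81 without 4-phenoxybenzoic acid flask 3, against 3.75 to 4.14 without phenetole flask 2 and 3.55 to 4.73 without phenetole flask 3. Leaving out 4-phenoxybenzoic acid flask 3 thus lowered the differences as well as the calls, Trisim1_002150 standing at 2.72 without it and at 4.25 with it.

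Calls that did not depend on a single flask were mostly of loci lower with 4-phenoxybenzoic acid. In each of the 6 fits that left out a library, 21 of the 408 loci were called in the same direction, 2 higher and 19 lower. These loci were singled out after their values were seen, and with only these 6 libraries in the fit their adjusted p was 0.116 to 0.122. Over the 19, the log2 differences ranged from −5.39 to −1.34. Against the control, 16 of the 19 were called higher with phenetole (1.52% of all loci tested were) and 0 were called with 4-phenoxybenzoic acid (0.0738%). The same phenetole and 4-phenoxybenzoic acid libraries chose the 19, so nothing is read from these counts.

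The loci called higher were Trisim1_004849 (309 bp) and Trisim1_010256 (2811 bp). Trisim1_004849 measured 50.6, 44 and 54 CPM with 4-phenoxybenzoic acid, against 17.7, 14.6 and 25.6 CPM with phenetole (log2 difference 1.36 ± 0.24, adjusted p = 0.00522, edgeR). The control lay between them at 41, 37.9 and 31.3 CPM. Trisim1_010256 measured 140, 147 and 115 CPM with 4-phenoxybenzoic acid, against 80.6, 48.3 and 51 CPM with phenetole (log2 difference 1.16 ± 0.20, adjusted p = 0.00522, edgeR). Its differences were modest, but flasks of a group lay close together. When a library was left out, the adjusted p of these loci reached 0.0445 and 0.0486 at most.

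Of the loci called lower, Trisim1_005908 (1260 bp) measured 2.61, 1.37 and 2.02 CPM with 4-phenoxybenzoic acid, against 8.71, 30.3 and 26.7 CPM with phenetole (log2 difference −3.45 ± 0.45, adjusted p = 0.000817, edgeR). Trisim1_012337 (3514 bp) measured 32.3, 41.1 and 23.2 CPM, against 86.6, 334 and 397 CPM with phenetole (−3.08 ± 0.43, adjusted p = 0.00107). At both, 4-phenoxybenzoic acid flasks overlapped the control, whose flasks ranged from 1.78 to 5.43 CPM and from 29.4 to 52.8 CPM. Trisim1_006832 (1383 bp) measured 63.2, 88.1 and 26.6 CPM with 4-phenoxybenzoic acid, against 191, 322 and 324 CPM with phenetole. Trisim1_000345 (942 bp) measured 10.4, 10 and 7.55 CPM, against 27.3, 31.7 and 54.7 CPM with phenetole. Phenetole flask 1 was the lowest phenetole flask at each of these 4 loci.

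Several well-expressed loci belonged to this group. Trisim1_002588 (894 bp) measured 315, 230 and 185 CPM with 4-phenoxybenzoic acid, against 579, 1144 and 1403 CPM with phenetole (log2 difference −2.10 ± 0.32, adjusted p = 0.00268, edgeR). Trisim1_003868 (504 bp) measured 131, 83.1 and 90.2 CPM, against 267, 573 and 968 CPM with phenetole (−2.57 ± 0.42, adjusted p = 0.00391). Trisim1_008282 (3236 bp) measured 208, 244 and 119 CPM, against 439, 544 and 626 CPM with phenetole (−1.49 ± 0.25, adjusted p = 0.00421). The control levels of the first of these loci, 346, 312 and 307 CPM, overlapped those with 4-phenoxybenzoic acid, and those of Trisim1_008282, 177, 174 and 152 CPM, lay within them. Those of Trisim1_003868, 170, 138 and 187 CPM, lay above all 4-phenoxybenzoic acid flasks and below all phenetole flasks. Trisim1_002008 (2605 bp) and its neighbour in the numbering, Trisim1_002009 (1668 bp), were both in the group, with log2 differences of −1.80 ± 0.30 and −2.92 ± 0.48. The remaining loci, Trisim1_002189, Trisim1_010722, Trisim1_005396, Trisim1_008873, Trisim1_002323, Trisim1_006633, Trisim1_006369 and Trisim1_000843, had log2 differences between −2.56 and −1.34.

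The most abundant loci called in each direction were named as well. Per length, Trisim1_003506 (1350 bp) stood at 1243 ± 720 FPKM with 4-phenoxybenzoic acid and at 6195 ± 2148 FPKM with phenetole (SD, n = 3), and Trisim1_003507 (1854 bp), next to it in the numbering, at 795 ± 468 and 3292 ± 1165 FPKM. In CPM, Trisim1_003506 measured 2760, 1690 and 747 with 4-phenoxybenzoic acid against 5384, 11274 and 9100 with phenetole (log2 difference −2.31 ± 0.46, adjusted p = 0.0118, edgeR). Trisim1_003507 measured 2388, 1587 and 591 CPM against 4038, 8494 and 6274 CPM with phenetole (−2.04 ± 0.45, adjusted p = 0.0184). Flask 3 of 4-phenoxybenzoic acid was the lowest and flask 2 of phenetole the highest at both. Trisim1_008729 (5060 bp) measured 1272, 629 and 494 CPM against 1692, 2163 and 3834 CPM with phenetole (−1.68 ± 0.38, adjusted p = 0.0187). Control flasks ranged from 2119 to 4712 CPM at Trisim1_003506, 1834 to 3080 CPM at Trisim1_003507 and 977 to 1480 CPM at Trisim1_008729. At each locus they overlapped the 4-phenoxybenzoic acid flasks and lay below all phenetole flasks.

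Among loci called higher, Trisim1_007430 (1746 bp) measured 1052, 1702 and 3108 CPM with 4-phenoxybenzoic acid, against 331, 93.2 and 33.7 CPM with phenetole (log2 difference 3.68 ± 1.00, adjusted p = 0.0437, edgeR). Trisim1_002826 (1829 bp) measured 539, 1104 and 1643 CPM, against 318, 126 and 24.1 CPM with phenetole (2.81 ± 0.76, adjusted p = 0.0423). Trisim1_003567 (576 bp), the highest of them per length at 2521 ± 1209 FPKM against 290 ± 218 FPKM with phenetole, was 8.13-fold higher in CPM (3.12 ± 0.62, adjusted p = 0.0117). In each of the 3 loci flask 3 of 4-phenoxybenzoic acid was the highest flask and flask 1 of phenetole the highest phenetole flask. All 6 abundant loci lost their calls without 4-phenoxybenzoic acid flask 3 (adjusted p of 0.0719 to 0.223) and without phenetole flask 2 (0.0503 to 0.187). Without phenetole flask 3, 5 lost them (up to 0.194), Trisim1_003506 being called at 0.0486. Without 4-phenoxybenzoic acid flask 2, the calls of Trisim1_007430, Trisim1_002826 and Trisim1_008729 were lost (up to 0.0691). The 3 loci called higher had log2 differences of 2.40 to 3.17 without 4-phenoxybenzoic acid flask 3, 2.68 to 3.42 without phenetole flask 2 and 2.30 to 3.19 without phenetole flask 3. The 3 called lower had −1.95 to −1.43, −2.06 to −1.76 and −2.27 to −1.28 in these fits, so the direction held in each.

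Some called loci stood next to each other in the gene numbering. A numbered neighbour was called in the same direction for 28 of 166 numbered loci called higher (16.9%) and for 48 of 220 called lower (21.8%), while 2.67% and 3.69% of the 10197 numbered loci tested had a neighbour called in these directions. The sources used here do not say whether the numbering follows the genome. Runs of 3 or more consecutive numbers occurred 3 times among loci called higher and 4 times among loci called lower, with 12 loci in runs in each direction.

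The longest run, Trisim1_003566 to Trisim1_003570, held 5 loci that were higher with 4-phenoxybenzoic acid, with log2 differences of 2.41 to 3.12. Trisim1_003567 stood at 752, 1576 and 2142 CPM with 4-phenoxybenzoic acid against 322, 97.4 and 96.2 CPM with phenetole. Trisim1_003568 (1644 bp) stood at 158, 260 and 344 CPM against 83.8, 15.1 and 9.44 CPM with phenetole, and Trisim1_003569 (1698 bp) at 162, 231 and 329 CPM against 68.8, 15.4 and 11.9 CPM with phenetole. Trisim1_003566 (1254 bp) and Trisim1_003570 (3405 bp) were 5.07-fold and 5.95-fold higher. At each of the 5 loci the flasks of 4-phenoxybenzoic acid ranked 1, 2, 3 from low to high and those of phenetole 3, 2, 1, so the order of the flasks was shared along the run. All 5 calls were lost without 4-phenoxybenzoic acid flask 3 (adjusted p of 0.0719 to 0.204), without phenetole flask 2 (0.073 to 0.2) and without phenetole flask 3 (0.0792 to 0.2), and 2 without 4-phenoxybenzoic acid flask 2 (up to 0.074). The log2 differences over the run stayed at 2.02 to 2.76, 2.24 to 2.83 and 2.07 to 2.82 in the first 3 of these fits. With the flask number as a block Trisim1_003568 lost its call (adjusted p = 0.0571, edgeR), which breaks the run. A run of 4, Trisim1_006619 to Trisim1_006622, had log2 differences of 2.61 to 3.88.

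The longest run among loci called lower that the naming rule chose was Trisim1_004705 to Trisim1_004707. Trisim1_004706 (2496 bp) stood at 82.5, 175 and 29.1 CPM with 4-phenoxybenzoic acid, against 264, 1538 and 564 CPM with phenetole (log2 difference −3.04 ± 0.68, adjusted p = 0.0183, edgeR). Trisim1_004705 (1550 bp) was 5.99-fold and Trisim1_004707 (1148 bp) 4.48-fold lower. In the 3 loci phenetole flask 2 was the highest flask and 4-phenoxybenzoic acid flask 3 the lowest. Their calls were lost without 4-phenoxybenzoic acid flask 3 (adjusted p of 0.0583 to 0.123), and those of Trisim1_004706 and Trisim1_004707 without phenetole flask 2 (up to 0.121). Their log2 differences were −2.61 to −1.94 and −2.12 to −1.70 in these fits. The run Trisim1_012335 to Trisim1_012337, of the same length, had log2 differences of −3.08 to −2.26, and Trisim1_012337 in it kept its call in every fit that left out a library.

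The consecutive loci Trisim1_006099, Trisim1_006100 and Trisim1_006101, which earlier results of these data had shown to rise with a compound, were compared between the compounds. Trisim1_006100 (384 bp) stood at 2.37, 92.4 and 56.9 CPM with 4-phenoxybenzoic acid, against 141, 212 and 236 CPM with phenetole. Trisim1_006101 (4518 bp) stood at 21.8, 120 and 185 CPM against 346, 256 and 747 CPM with phenetole, and Trisim1_006099 (462 bp) at 0.0816, 11.8 and 7.27 CPM against 18.1, 21.9 and 40.3 CPM with phenetole. The groups did not overlap at any of the 3, as at 26.2% of all loci tested (13.2% with 4-phenoxybenzoic acid below phenetole), and flask 1 of 4-phenoxybenzoic acid was the lowest flask at each. The log2 differences, −2.07 ± 0.90, −1.96 ± 0.76 and −2.05 ± 0.60 in the order of the numbering, did not pass edgeR's test (adjusted p = 0.223, 0.162 and 0.0612). That of Trisim1_006101 passed in DESeq2 (0.0162) and with the flask number as a block (0.0153), and all 3 passed in limma on log2(FPKM + 1), with adjusted p of 0.0176 to 0.0386. Control flasks held between 0 and 3.72 CPM of these loci.

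Lists drawn from other libraries were then read in the contrast. The control itself changed between day 1 and day 3, and the loci that rose or fell in it, 1097 (10.1% of those tested) and 1154 (10.6%) at an adjusted p under 0.05, use no library of the contrast. Of the 1097 loci that rose with time in the control, 118 (10.8%) were higher and 8 (0.729%) lower with 4-phenoxybenzoic acid than with phenetole, beside 1.68% and 2.08% of all loci tested. Of the 1154 that fell with time, 8 (0.693%) were higher and 110 (9.53%) lower. The risers made up 64.8% of all loci called higher and the fallers 48.7% of those called lower. The median log2 difference was 0.50 over the risers and −0.34 over the fallers, beside 0.03 over all loci tested, and 79% of the risers and 26.7% of the fallers had a positive difference.

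The flasks placed these lists unevenly. Relative to the mean of the day 3 control, the median log2 level of the risers was −0.10, 0.01 and 0.25 in 4-phenoxybenzoic acid flasks 1, 2 and 3, against −0.19, −0.70 and −0.63 in phenetole flasks. For the fallers it was 0.00, 0.07 and −0.32 with 4-phenoxybenzoic acid, against 0.07, 0.45 and 0.36 with phenetole. Phenetole flask 1 lay near the control and near 4-phenoxybenzoic acid flasks 1 and 2, while phenetole flasks 2 and 3 stood apart. The day 3 control libraries helped to choose these lists, so distances from the control hold in part that choice. The risers called higher numbered 0 without 4-phenoxybenzoic acid flask 3, 2 without phenetole flask 2 and 2 without phenetole flask 3, and 187 without phenetole flask 1. The fallers called lower numbered 13, 40, 29 and 176 in these fits. Over all loci tested, 6, 9, 7 and 286 were called higher and 21, 66, 46 and 359 lower in them. The medians kept their signs under every alternative run, with 0.39 to 0.68 for the risers and −0.44 to −0.25 for the fallers.

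**Figure D4:**
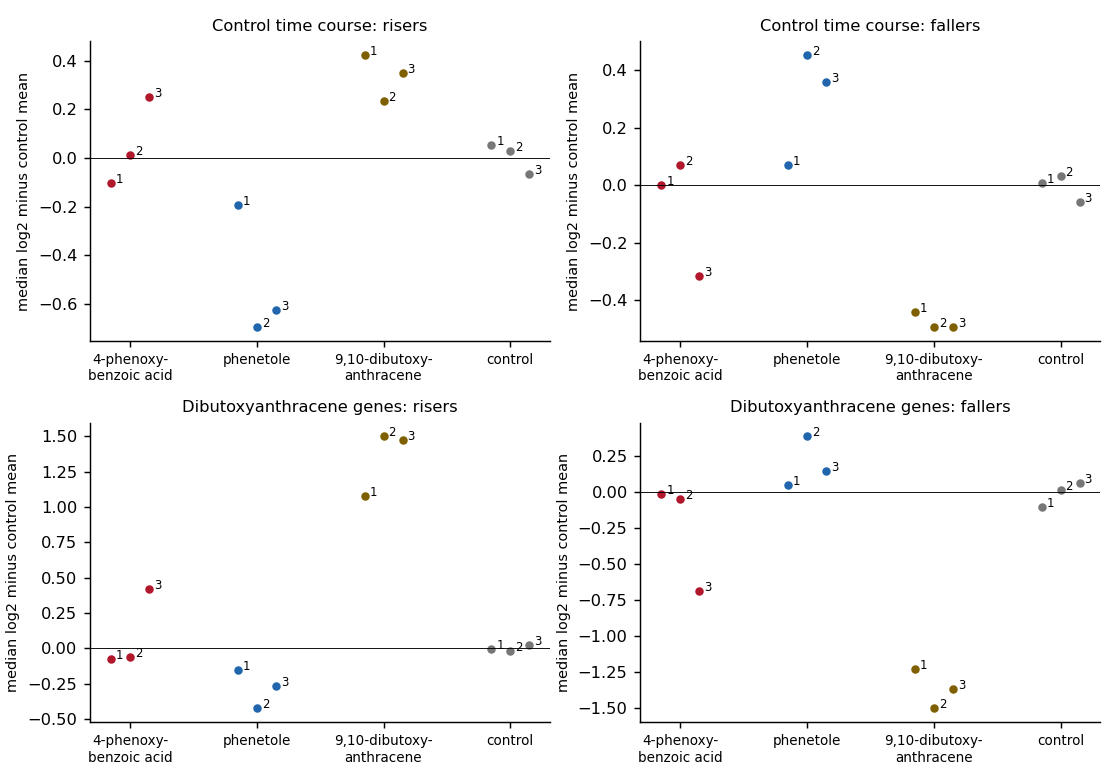
Each point is a day 3 library, numbered by flask; the y axis is the median over a list's loci of the log2 level minus the mean of the control libraries, and the x axis the group. The lists are loci that rose or fell with time in the control (top) and loci that rose or fell with 9,10-dibutoxyanthracene against the control (bottom). Phenetole flasks 2 and 3 lie on the side opposite to 9,10-dibutoxyanthracene in every panel, and 4-phenoxybenzoic acid flask 3 on the side of 9,10-dibutoxyanthracene. The control libraries helped to choose all lists, and the 9,10-dibutoxyanthracene libraries those at the bottom. Their levels are set in part by that choice.

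The loci that differed between 9,10-dibutoxyanthracene and the control at day 3 gave a second pair of lists from other libraries. Of 568 that rose with 9,10-dibutoxyanthracene (5.24% of those tested), 55 (9.68%) were higher and 0 lower with 4-phenoxybenzoic acid than with phenetole. Of 1172 that fell (10.8%), 5 (0.427%) were higher and 104 (8.87%) lower. Over all loci tested, 1.68% were higher and 2.08% lower. The medians were 0.34 and −0.43, beside 0.03 over all loci tested. In flasks 1, 2 and 3 of 4-phenoxybenzoic acid, the median level of the fallers relative to the control was −0.01, −0.05 and −0.69, against 0.05, 0.39 and 0.15 in phenetole flasks, and −1.23, −1.50 and −1.37 in the 9,10-dibutoxyanthracene flasks. For the risers it was −0.08, −0.06 and 0.42 with 4-phenoxybenzoic acid, −0.16, −0.42 and −0.27 with phenetole, and 1.08, 1.5 and 1.47 with 9,10-dibutoxyanthracene. On both lists flask 3 of 4-phenoxybenzoic acid lay between the control and the 9,10-dibutoxyanthracene flasks, farther along on the fallers than on the risers. Its flasks 1 and 2 lay near the control. The control and 9,10-dibutoxyanthracene libraries chose these lists, which widens the gap between them. A library not used in the choice tends to fall inside that gap, so nothing is read from a position there. Without 4-phenoxybenzoic acid flask 3 the loci called higher among these risers and lower among these fallers numbered 0 and 11. They numbered 2 and 29 without phenetole flask 2, and 3 and 27 without phenetole flask 3. Over all loci tested, the calls higher and lower in these fits numbered 6 and 21, 9 and 66, and 7 and 46. Both of these compounds came in dichloromethane and phenetole did not, and the part of the solvent was not tested.

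The same compounds were compared at day 1 in libraries that the day 3 contrast does not use. There edgeR called 5047 of the 10842 loci (46.6%), 2549 higher and 2498 lower with 4-phenoxybenzoic acid. The TMM factors at day 1 were 1.101 to 1.217 with 4-phenoxybenzoic acid and 0.6175 to 0.7589 with phenetole. Per library 11500 ± 20.3 and 10946 ± 46.1 loci had a count (SD, n = 3). The day 1 levels and calls rest on this scaling. Over the loci called at day 1 the median absolute log2 difference was 1.54 at day 1 and 0.347 at day 3, beside 0.878 and 0.355 over all loci tested. Of the 182 loci called higher at day 3, 89 (48.9% of them, 3.49% of those called higher at day 1) were also called higher at day 1, where 23.5% of all loci tested were. Of the 226 called lower at day 3, 144 (63.7% of them, 5.76% of those called lower at day 1) were also called lower at day 1, where 23.0% of all loci tested were. The opposite direction was called at day 1 for 13 and 11 loci. Whether the same flasks gave the day 1 and day 3 samples is not stated in the labels.

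**Figure D5:**
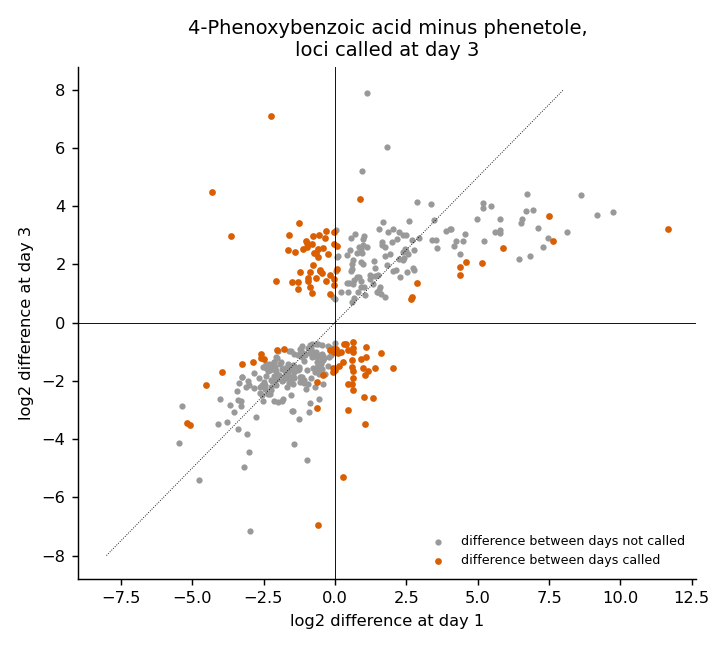
Each point is a locus called at day 3, with the log2 difference between the compounds (4-phenoxybenzoic acid minus phenetole) at day 1 on the x axis and at day 3 on the y axis; the dotted line marks equal differences. Orange points, 58 above and 53 below 0 on the y axis, had differences that changed between the days in edgeR's test.

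The difference between the compounds itself differed between the days at 2522 loci (23.3% of those tested), and at 58 of the 182 loci called higher (31.9%) and 53 of the 226 called lower (23.5%). The day 3 libraries that chose the called loci also enter this test, so nothing is read from the shares among them. Trisim1_010256 turned round. At day 1 it stood at 59.2 ± 6.05 CPM with 4-phenoxybenzoic acid and 146 ± 22.4 CPM with phenetole (SD, n = 3; log2 difference −1.30, adjusted p = 4.76e-05, edgeR), whereas at day 3 it was higher with 4-phenoxybenzoic acid (change 2.46 ± 0.29, adjusted p = 1.68e-05). Trisim1_003868 was higher at day 1, at 264 ± 58.4 CPM with 4-phenoxybenzoic acid and 104 ± 28.5 CPM with phenetole (log2 difference 1.34, adjusted p = 0.00996), and lower at day 3 (change −3.92 ± 0.58, adjusted p = 0.000117). Trisim1_000843 (1365 bp) did the same, with 19.4 ± 7.02 CPM with 4-phenoxybenzoic acid and 9.58 ± 2.10 CPM with phenetole at day 1, and 3.43, 6.17 and 3.07 CPM against 19, 22.5 and 33.4 CPM at day 3 (change −3.58 ± 0.51, adjusted p = 8.39e-05).

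Other loci differed at both days. Trisim1_011476 stood at 5.19 ± 0.335 CPM with 4-phenoxybenzoic acid and 174 ± 16.2 CPM with phenetole at day 1, a log2 difference of −5.07 (adjusted p = 8.5e-08, edgeR), and the difference was smaller at day 3 (change 1.56 ± 0.53, adjusted p = 0.038). Trisim1_005908 stood at 1.17 ± 0.188 CPM with 4-phenoxybenzoic acid and 42.8 ± 10.8 CPM with phenetole at day 1 (change 1.74 ± 0.60, adjusted p = 0.0398). Trisim1_007805 was lower with 4-phenoxybenzoic acid at both days, and its difference at day 1, −4.77 (adjusted p = 1.53e-05), was not shown to differ from that at day 3 (adjusted p = 0.642). Trisim1_007430 and Trisim1_002826 differed more at day 1, at 303 ± 127 and 223 ± 84.0 CPM with 4-phenoxybenzoic acid against 1.65 ± 1.25 and 1.11 ± 0.615 CPM with phenetole. Their log2 differences at day 1 were 7.51 and 7.64 (adjusted p = 6.54e-05 and 5.42e-06).

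Flask 3 of 4-phenoxybenzoic acid carried the day 3 differences of the called loci with the largest change between days. Trisim1_011595 (2039 bp) stood at 0.0816, 0.171 and 249 CPM in 4-phenoxybenzoic acid flasks 1, 2 and 3 at day 3, against 0.133, 0 and 1.7 CPM with phenetole, so that the groups overlapped. Its log2 difference of 7.10 ± 1.79 (adjusted p = 0.0308, edgeR) turned to −2.21 without 4-phenoxybenzoic acid flask 3 (adjusted p = 0.563). Trisim1_003633 (1084 bp) stood at 0.326, 0.471 and 10.4 CPM against 0, 0.111 and 0.384 CPM with phenetole, where groups overlapped as well, and its call was lost without that flask (adjusted p = 0.747). Both calls were also lost without each phenetole flask, with adjusted p of 0.0688 to 0.179.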

How the data were processed

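RNA from mycelium was sequenced as poly-A libraries of 370 to 420 bp fragments with paired reads of 150 bp, per the labels' protocols. The deposited counts are raw reads per locus, counted by the authors with featureCounts 1.5.0-p3 per the submitters' processing notes; the sources used here name no aligner, build or annotation. The deposited FPKM equal counts divided by length and by a median-of-ratios library size, and all 12728 recovered lengths were whole within 0.01. Counts were fitted in R 4.3.3 with edgeR 4.0.16 (TMM, filterByExpr with a minimum count of 10, quasi-likelihood F test, Benjamini-Hochberg adjustment over 10842 loci, two-sided) on all 24 libraries with a coefficient per group. SE is the absolute log2 difference over the root of F. Alternatives used DESeq2 1.42.0, limma 3.58.1 on log2(FPKM + 1) for loci with a mean FPKM of at least 1, edgeR with DESeq2 size factors, no filter, only the compared groups, a flask block and leaving out each library. Folds are ratios of pooled scaled counts.

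Named loci had to be called, with groups not overlapping and the higher group never under 10 counts in a library, and were the 8 largest rises and 8 largest falls. Added were the 3 most abundant calls and the longest run in each direction, the 2 called loci with the largest change between days, and 3 loci from earlier results. Members and lists were chosen with earlier results of these data known. The labels number the replicates as flasks but do not say whether these were started independently. The p-values then reflect flask-to-flask spread that may be technical. Methods were tested on simulated data.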

Additional observations from a re-analysis of the deposited data

Results flagged for a closer look

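The difference between the compounds differed between the days, by the test of the difference itself in edgeR, at 2522 loci, and at the following described loci. The change (day 3 minus day 1, of the log2 difference 4-phenoxybenzoic acid minus phenetole) was positive at Trisim1_011595 (9.35), Trisim1_003633 (8.80), Trisim1_002150 (3.38), Trisim1_003567 (3.13), Trisim1_003566 (3.06), Trisim1_010256 (2.46), Trisim1_005908 (1.74) and Trisim1_011476 (1.56). It was negative at Trisim1_000290 (−6.38), Trisim1_004085 (−5.59), Trisim1_002826 (−4.83), Trisim1_003868 (−3.92), Trisim1_007430 (−3.84), Trisim1_000843 (−3.58), Trisim1_002588 (−2.57), Trisim1_002009 (−2.28), Trisim1_008282 (−1.65), Trisim1_002189 (−1.61), Trisim1_008729 (−1.61), Trisim1_004849 (−1.52), Trisim1_000345 (−1.40) and Trisim1_002008 (−1.38). At Trisim1_003567 the compounds stood level at day 1, with 148 ± 82.0 CPM with 4-phenoxybenzoic acid and 150 ± 38.6 CPM with phenetole (SD, n = 3). Within its run, Trisim1_003568 and Trisim1_003569 already differed there, with log2 differences of 5.20 and 2.95 (adjusted p = 0.000177 and 0.0014, edgeR), whereas Trisim1_003566 at −0.65 (0.317) and Trisim1_003570 at 1.65 (0.0629) did not pass the test.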

How the results depend on the processing

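The day 3 count of 408 loci was 829 with DESeq2, 0 when edgeR saw these 6 libraries alone (2060 loci had an unadjusted p under 0.05), and 27 to 645 when a library was left out. It was 411 with DESeq2 size factors, 388 without a filter and 419 with limma. The day 1 count of 5047 and the count of 2522 for the change between days stayed within 1.5 times under all alternatives, with 4108 to 5054 and 1767 to 2871 when a library was left out. Of the day 3 calls, 407 were shared with DESeq2 in the same direction. With DESeq2 size factors 407 of 411 calls were shared, without a filter 382 of 388 and with limma 332 of 419. A similar total thus meant nearly the same loci with DESeq2 size factors and without a filter, and less so with limma. Of the alternatives run for the described loci, 475 gave the same call, 146 lost a call, 5 gained one and 1 turned the direction. Among these loci are the 21 called whichever library was left out. These were chosen for keeping their calls, so part of the 475 was fixed in advance. The loci from earlier results were not called with all libraries, so for them the same call means no call. The turn was that of Trisim1_011595, at −2.21 without 4-phenoxybenzoic acid flask 3, where the other fits leaving out a library reached 10.02. At this locus 4-phenoxybenzoic acid flask 3 stood at 249 CPM, against 0.0816 and 0.171 CPM in flasks 1 and 2. Why that flask stood so high was not tested. With the flask number as a replicate block edgeR called 531 loci at day 3, 5310 at day 1 and 3006 for the change. Deviations of same-numbered flasks correlated at −0.12, 0.39 and 0.06 at day 3, where flask 2 alone correlated best with its own number. At day 1 they correlated at 0.19, −0.03 and 0.1, and there flask 1 alone did so. The flasks were treated as sharing only a number.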
